A study of Homo sapiens with 4 samples.

Results

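The nucleolar protein mRNAs described here are those of NCL, NPM1, FBL, NOP56, NOP58, DKC1, NOLC1, TCOF1 and NOP2, which are 9 of the 62700 genes in the annotation. They were chosen by name as genes of known nucleolar proteins, with earlier results of these data known. Their PR100-FLAG crosslinking events were counted inside the span of each gene on its strand and then by exon, coding sequence (CDS), untranslated region (UTR) and intron of the canonical transcript. All events came from HEK293T, a transformed human embryonic kidney cell line. The cells were transiently transfected with PR100-FLAG, a proline-arginine repeat with a triple FLAG tag, induced with 150 ng/ml doxycycline for 24 h and irradiated with UV light of 254 nm at 160 mJ/cm2. Expression came from a plasmid, so these are overexpressing cells, and no source states that the replicates were separate cultures. Replicates 1, 2 and 3 were purified by SDS-PAGE and replicate 4 on beads. Their random barcodes had 7, 7, 5 and 7 nt. The 4 libraries form a single condition. The control libraries were not analysed here, so the values hold no correction for background and no comparison between conditions.

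The nucleolus is the nuclear compartment in which ribosomal RNA is transcribed, modified and assembled into ribosomal subunits. Its proteins often carry long runs of acidic or of lysine-rich residues, and arginine-rich dipeptides such as poly(PR) are known to accumulate in it. Guide RNAs called snoRNAs direct the chemical modification of ribosomal RNA, and many of them are cut from the introns of genes for nucleolar proteins. iiCLIP reads the position at which a protein was joined to RNA from the point where reverse transcription stopped, and each unique cDNA counts as an event.

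The sequences at the strongest exonic positions of NCL show what the peptide met in the mRNA with the most events. In each line, 30 nt of the transcript are given from 5 nt upstream of the crosslinked nucleotide, which is therefore the 6th base, and capitals mark the motif GAAGA or its close relatives, the motif GAGGA and the motif GACGA. This family is written GANGA, and a motif may run past the end of the window. All lie in codons of acidic stretches, on the minus strand of GRCh38. They had the most events in exons 2, 4 and 3, the exons with the most events per kb, and were picked with their values known.
NCL exon 2, chr2:231463248-231463277: cctccaaaggaggtaGAAGAAGAtagtGAA
NCL exon 4, chr2:231460765-231460794: ccaagaacgtggctGAGGAtGAAGAtGAAG
NCL exon 3, chr2:231461564-231461593: AGGACGAtGAGGAtGACGAAGAtgatGAGG
The position in exon 2 held 2, 23, 0 and 6 events in replicates 1 to 4, that in exon 4 held 4, 13, 0 and 9, and that in exon 3 held 2, 6, 0 and 2. Each was seen in 3 of the 4 libraries and not in replicate 3, the smallest library. For contrast, the leading positions of TCOF1 and NOLC1, in the densest of their exons with at least 20 events and a position seen in at least 2 libraries, lay outside acidic stretches and had no motif start from 5 nt upstream to 30 nt downstream. They do not stand for all genes other than NCL. By the same rule, the leading positions of NOP56, NOP58 and DKC1 had a motif start in this range, and that of NPM1 had none. The NOP56 line below is from an intron of that gene, at the position with the most events in SNORD57, the snoRNA with the most events in the 9 genes.
TCOF1 exon 24, plus strand, chr5:150396758-150396787: GAgcttcagaaggggatggggacggttgaa
NOLC1 exon 10, plus strand, chr10:102160744-102160773: gggtagtagggacagcagctctgattcaga
SNORD57 in NOP56, plus strand, chr20:2656963-2656992: tgaccttgtagaatggaggcaaaaaaactg
The TCOF1 position held 1, 5, 0 and 0 events, the NOLC1 position 3, 0, 0 and 1, and the SNORD57 position 4, 13, 5 and 8. The capitals at the start of the TCOF1 line are the end of a motif that begins further upstream than the window counts.

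The 9 genes held 3727 of the events of the 4 libraries, or 0.300% of them. The libraries held 125694 to 604816 events in all, and the 9 genes held 739, 1730, 232 and 1026 of them in replicates 1 to 4. In CPM, the count scaled to the total of the library and the unit of the study, these were 2212, 2860, 1846 and 5712, with a mean of 3157 ± 1754 (SD, n = 4). Replicate 4, the bead library, lay above each SDS-PAGE library for every one of the 9 genes. Without it the mean was 2306 ± 514 (SD, n = 3). The method of purification and the single library purified in that way cannot be told apart. Replicate 3 had more cDNAs per position than the others. In the 9 genes it held 4.30 cDNAs per crosslinked position, against 1.75, 2.02 and 1.42 in replicates 1, 2 and 4, and its random barcode was the shortest. With each of its positions counted once, replicate 3 fell from 1846 to 430 CPM. With each position counted once in all libraries, the mean was 1782 ± 1553 CPM (SD, n = 4).

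At least 200 pooled events, the minimum the study used for a gene, were reached by 5 of the 9 genes, NCL, NOP56, NOP58, TCOF1 and NPM1. Of the 16880 protein-coding genes with at least 1 event, 4.16% reached it. The 9 genes were chosen with earlier results of these data known, so this contrast is a description and no test. The study also limited binding in its control libraries, a condition that was not applied here. A pooled count depends on the length of the gene and on the amount of its RNA, which was not measured in these libraries, so the count says where events were found and not how strongly a molecule of RNA was bound. Without replicate 2, the largest library, 3 of the 9 reached the minimum, and 2 of the 9 held at least 400 events, which 0.741% of the protein-coding genes did.

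NCL encodes nucleolin, an abundant RNA-binding protein of the nucleolus that acts in the transcription and processing of ribosomal RNA. It held 316, 762, 108 and 428 events in replicates 1 to 4, which is 43.3% of the events of the 9 genes. NOP56 and NOP58 encode core proteins of the box C/D particles, which methylate ribosomal RNA, and FBL encodes fibrillarin, the methyltransferase of the same particles. NOP56 held 123, 270, 41 and 207 events and NOP58 78, 160, 33 and 94, whereas FBL held only 10, 35, 1 and 15. Over the gene span these were 573 ± 389 CPM for NOP56 and 44.8 ± 32.9 CPM for FBL (SD, n = 4), but 314 of the 641 events of NOP56 lay on snoRNAs in its introns. Per kb of exon the values were 84.9 and 35.4 CPM. DKC1 encodes dyskerin, the pseudouridine synthase of the box H/ACA particles, and held 27, 60, 7 and 32 events. NPM1 encodes nucleophosmin, a histone and ribosome chaperone, and held 66, 112, 21 and 91. TCOF1 encodes treacle, a long phosphoprotein that binds RNA polymerase I, and held 69, 179, 6 and 104 events. NOLC1, which encodes the related phosphoprotein Nopp140, held 37, 101, 10 and 37. NOP2, a methyltransferase of the large ribosomal subunit RNA, held 13, 51, 5 and 18. Replicate 2, the deepest library, gave the most events to each gene, whereas in CPM replicate 4 was the highest throughout.

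**Figure D1:**
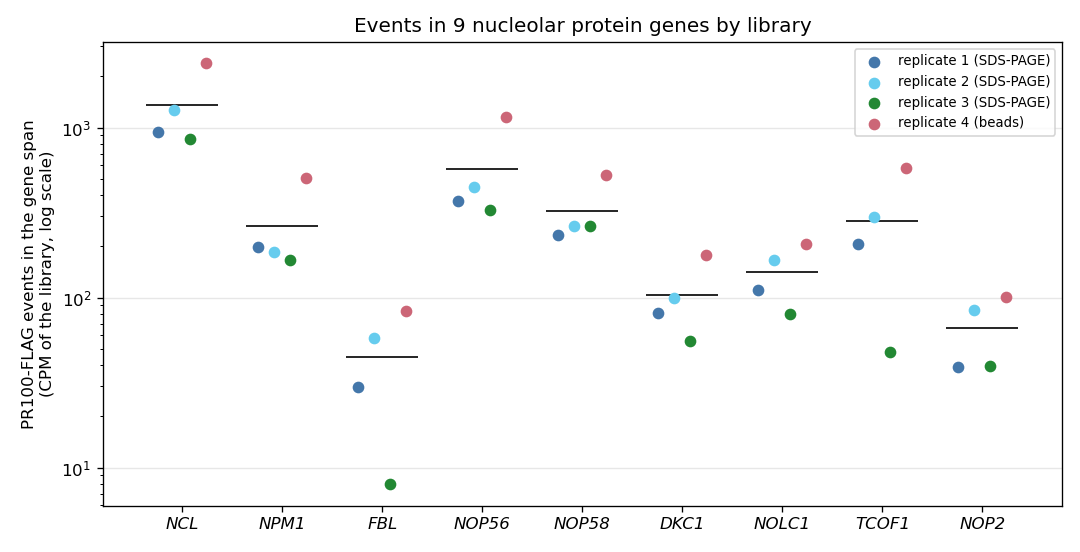
PR100-FLAG crosslinking events in the span of each gene, in CPM of the library on a log scale. Points are the 4 libraries and black lines their mean. Replicate 4 was the highest point for every gene, and FBL and TCOF1 had their lowest point in replicate 3, at 7.96 and 47.7 CPM.

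Per length of exon, the order of the levels was NCL, NPM1, NOP56, NOP58, TCOF1, FBL, NOLC1, DKC1 and NOP2. NCL had 290 ± 148 CPM per kb of exon and NOP2 had 20.7 ± 10.3 (SD, n = 4). NCL lay above NPM1, which had 152 ± 127, in 4 of 4 libraries, and NPM1 above NOP56 in 4 of 4. NOP56 at 84.9 ± 36.8 and NOP58 at 82.4 ± 38.6 changed places between libraries, with each higher in 2 of the 4, and did not differ beyond their spread. NOP58 lay above TCOF1 in 4 of 4 libraries. TCOF1, FBL, NOLC1 and DKC1, with means from 45.0 down to 34.4 CPM per kb, could not be put in order, since each was higher than the next in 2 of the 4. DKC1 lay above NOP2 in 4 of 4. Set among the 16880 protein-coding genes, the pooled events per kb of exon ran from the 97.0th percentile for NOP2 to rank 6 for NCL.

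Events of these mRNAs lay mostly in the coding sequence. It held 59.1%, 64.9%, 66.8% and 64.2% of the events in replicates 1 to 4, with 95% Wilson intervals from 55.6 to 62.6%, 62.6 to 67.1%, 60.5 to 72.6% and 61.2 to 67.1%, which cover counting error only. The mean was 63.8% ± 3.27 (SD, n = 4). The genes varied around it, from 29.2% of the pooled events in NOP56 to 83.6% in FBL. The median share was 70.4% over the 9 genes, 52.4% over 115 further nucleolar genes and 24.8% over the 703 protein-coding genes with at least 200 events. A share above that of the 703 genes was thus not particular to the 9. The share is taken of all events in the gene span, so the length of the introns enters it. Without NCL the mean share was 53.0%, so NCL raised it.

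Per length, the CDS had 132 events per kb, the 5′ UTRs 120, the 3′ UTRs 29.2 and the introns 7.47. The CDS was denser than the introns in 4 of 4 libraries, with a log2 ratio of 4.10 ± 0.19 (SD, n = 4). Part of this came from differences in level between genes. The ratio was 3.49 ± 0.35 without NCL and 3.11 ± 0.17 when compared within each gene, an alternative added on seeing the data. The CDS was also denser than the 3′ UTRs in 4 of 4, with a log2 ratio of 2.44 ± 0.67. This ratio rested in part on NCL, which supplied 1660 of the 5450 nt of 3′ UTR. From nt 2861 of its transcript to the end at nt 3924, only replicate 3 had events, all between nt 3181 and 3200. Whether the cells carry this part of the 3′ UTR was not tested. The ratio was 1.33 ± 0.32 with equal weight for each gene and 0.97 ± 0.59 outside significant clusters. Without NCL it was 0.97, 1.10, 5.14 and 1.43 in replicates 1 to 4, and replicate 3 had no event in the 3′ UTRs of the other genes. For the CDS against introns and against 3′ UTRs, an exact sign-flip permutation test, two-sided, gave p = 0.125. This is the lowest value possible with 4 libraries, so no test here can pass 0.05. Over the 6 exact tests of this kind, Benjamini-Hochberg adjustment turned each 0.125 into 0.15. The share in 5′ UTRs rested on NCL, whose 131 nt of 5′ UTR held 59 of the 94 events, or 8, 33, 0 and 18 in replicates 1 to 4.

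Small RNA genes inside the introns held much of the intronic signal. NCL, NOP56, NOP58 and DKC1 are hosts of 14 annotated snoRNAs and 2 miRNAs, which cover 1396 nt of intron and held 615 events, or 441 per kb. The remaining intron of these 4 genes had 4.76 events per kb. This includes events at the edges of the snoRNAs. The 10 nt upstream of SNORD57 held 56 events and the 10 nt downstream 1, and those of SNORD20 held 19 and 0, whereas SNORD70B had 0 and 1. The reason for this difference was not tested. All 9 of the significant pooled clusters that lay in introns of the 9 genes overlapped small RNA genes. With the small RNA genes left out, which was decided on seeing these counts, the CDS share of the 9 genes was 76.6% ± 6.81 (SD, n = 4). An event on a mature snoRNA and an event on the host intron before the snoRNA is cut out have the same coordinates and cannot be told apart.

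NOP56 was the clearest case. Its snoRNAs held 48, 135, 18 and 113 events in replicates 1 to 4, which was 39.0%, 50%, 43.9% and 54.6% of the events of the gene, with 95% Wilson intervals from 30.9 to 47.9%, 44.1 to 55.9%, 29.9 to 59.0% and 47.8 to 61.2%. More events therefore fell on its snoRNAs than on its CDS, which held 187 of 641. SNORD57 alone, a box C/D snoRNA of 72 nt, held 28, 54, 7 and 60 events. SNORD110 held 7, 46, 0 and 26, SNORD56 held 13, 29, 5 and 22, and SNORA51, a box H/ACA snoRNA, held 0, 6, 6 and 5. SNORD86, in the same gene, held 0 events in each library. The snoRNAs of 1 host thus differed from 149 events to none.

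In NOP58, SNORD70B held 40 events, SNORD70 held 29, SNORD11 held 20 and SNORD11B held 13, together 27.9% of the gene. Their share was 16.7%, 30.6%, 3.03% and 41.5% in replicates 1 to 4, so it was not stable between libraries. In NCL, SNORD20 held 8, 37, 7 and 33 events, SNORA75 held 9, 32, 13 and 14, and SNORD82 held 6, 15, 2 and 14, together 11.8% of the gene. DKC1 contrasted with the other hosts. Its 2 box H/ACA snoRNAs, SNORA56 and SNORA36A, held 7 and 2 events. Counts were not spread evenly along the snoRNAs, and the position with the most events held 20.1% of those of SNORD57 and 28.2% of those of SNORD20.

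**Figure D2:**
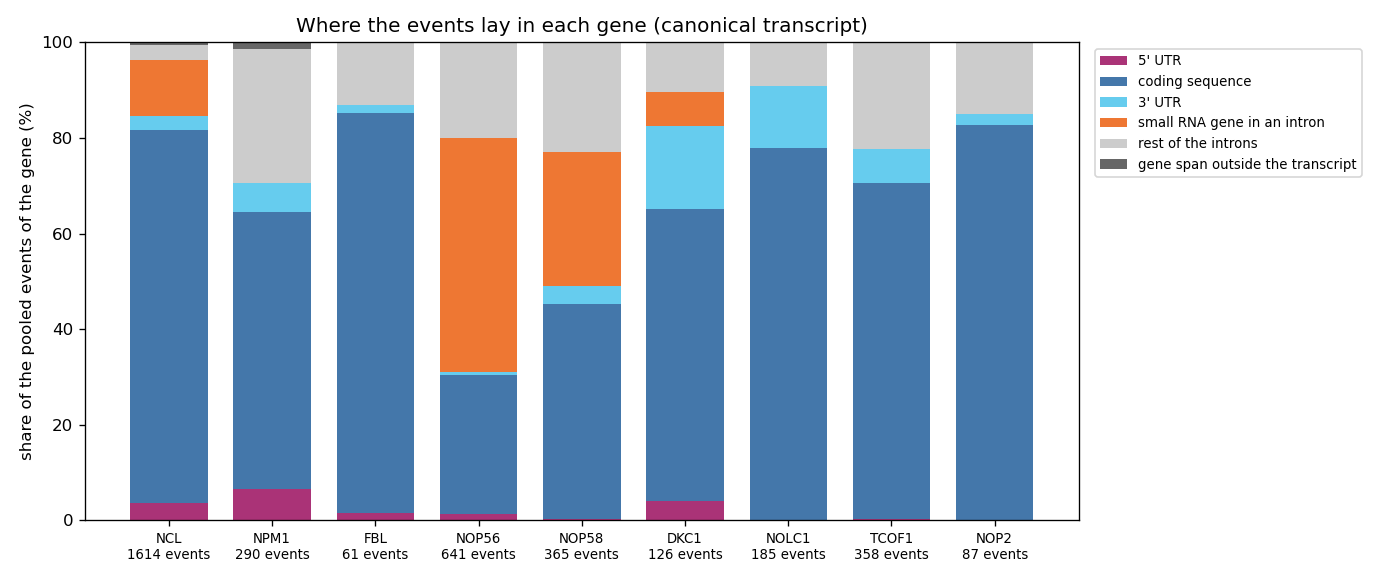
Shares of the pooled events of each gene by region of the canonical transcript, in percent, with the pooled number of events under each name. Small RNA genes in introns made up 49.0% of the events of NOP56 and 27.9% of those of NOP58, and the coding sequence made up 77.9% of those of NCL.

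Within the CDS of NCL, events gathered in the codons of acidic stretches. These were defined from the translated CDS as residues in any window of 20 with at least 10 aspartate or glutamate residues. Nucleolin had 3 of them, residues 17 to 50, 135 to 219 and 224 to 283, which make up 25.2% of its CDS. In replicates 1 to 4 they held 171 of 254, 374 of 593, 50 of 82 and 190 of 329 CDS events. The shares were 67.3%, 63.1%, 61.0% and 57.8%, and the lowest lower bound of their 95% Wilson intervals was 50.2%, so in each library more than their part of the length. Pooled, the acidic stretches had 1462 events per kb and the rest of the CDS 297.

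The stretches of NCL were not alike. Residues 17 to 50, encoded by exons 2 and 3, held 34, 135, 25 and 67 events and had the highest density, 2559 events per kb. Residues 224 to 283 held 65, 108, 25 and 71 events, or 1494 per kb. Residues 135 to 219, the longest stretch, held 72, 131, 0 and 52, or 1000 per kb. Replicate 3 had none there, but it had only 54 crosslinked positions in all 9 genes, so no limit is set on its share. In replicates 2, 3 and 4 the stretch nearest the start codon was the densest, whereas in replicate 1 the events were shared more evenly. Motif starts were dense in all 3 stretches, with 9, 27 and 24 GANGA motifs. The acidic codons and the motifs thus lay in the same place. Codons of glutamate and aspartate begin with GA, so runs of them can contain motifs of this family.

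Acidic stretches of the other genes did not share this pattern as a group. Summed over the 9 genes, acidic stretches were denser than the rest of the CDS by a log2 ratio of 2.77 ± 0.19 (SD, n = 4) in every library (two-sided exact sign-flip test, p = 0.125). This sum also holds differences in level between genes. NCL, with the most events, supplied 537 of the 1470 acidic nt but 1593 of the 15999 nt of the rest. Compared within each gene, an alternative added on seeing the data, the ratio was 1.62 ± 0.26, above 0 in 4 of 4 libraries. Without NCL the summed ratio was 0.18 ± 1.30, above 0 in 2 of 4 libraries (exact p = 0.75). A mean with equal weight for each gene that has such stretches, NCL among them, gave 0.47 ± 0.52, above 0 in 4 of 4. In it NCL had a mean of 2.29, NOP58 1.81 and NOP2 0.29, whereas TCOF1, NOLC1 and NPM1 had -0.17, -0.65 and -0.73. Libraries with no event in the stretches of a gene rest on the added 0.5 event. The mean with equal weight was not run without NCL.

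NOP58 came nearest to NCL. Its acidic stretch, residues 462 to 488, held 1, 22, 1 and 16 events, or 494 per kb against 78.2 in the rest of its CDS. The excess came from replicates 2 and 4, where the stretch took 33.3% and 34.0% of the CDS events, whereas in replicates 1 and 3 it took 3.13% and 5.56%. The stretches of NPM1, residues 112 to 140 and 151 to 196, had 200 events per kb against 187 in the rest, but none of their positions is followed by a unique 30-mer, so this comparison is uncertain. In NOP2 the values were 29.6 against 29.0 per kb. TCOF1 had 4 acidic stretches with 12 events, or 42.1 per kb against 51.2, and NOLC1 had 1 event in its stretch of 24 residues. Acidic stretches of these 4 genes were thus near the rest of their CDS or below it, at counts too low to show a moderate difference.

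Stretches rich in lysine and arginine, defined in the same way and outside the acidic ones, were present in NOP56, NOP58, DKC1, TCOF1 and NOP2. They had 201 events per kb, against 87.3 in the CDS of the 9 genes outside both kinds of stretch. The log2 ratio was 1.36 ± 0.38 (SD, n = 4) in each of the 4 libraries (two-sided exact sign-flip test, p = 0.125), and 1.81 ± 0.38 without NCL, which has no such stretch. It depended on the window, at 0.60 ± 0.39 with 10 residues and 0.84 ± 1.34 with 30, the latter above 0 in 3 of 4 libraries. Without the strongest position of each gene it was 0.44 ± 1.50 (exact p = 0.625), since replicate 3 had 9 cDNAs at 1 position of NOP56 and no others in these stretches. With each position of replicate 3 counted once, an alternative added on seeing this, the ratio was 1.20 ± 0.07.

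The basic stretch with the most events was in TCOF1. Residues 1432 to 1483, at the C-terminal end of treacle, held 9, 17, 0 and 8 events, or 218 per kb against 51.2 in the rest of the CDS. The stretch of NOP56, residues 433 to 457, held 4, 9, 9 and 7, or 387 per kb against 92.6. Those of NOP58 and DKC1 held 9 events each and that of NOP2 held 3. Except in NOP2, these stretches lay towards the stop codon, where the genes other than NCL had more of their events, as described below. Their density was not compared with that of the CDS around them.

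**Figure D3:**
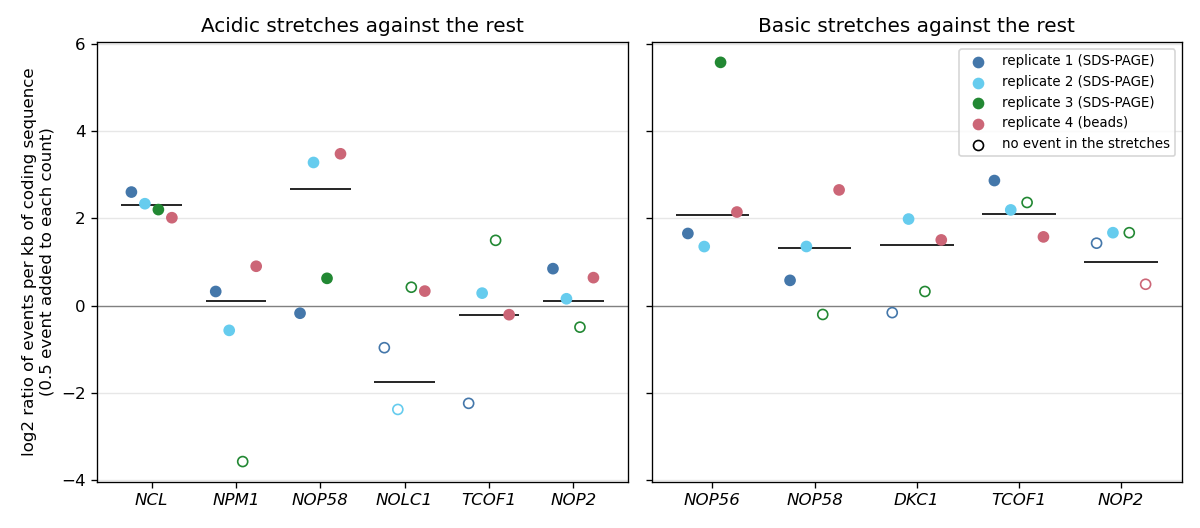
Log2 ratio of events per kb in acidic (left) or basic (right) stretches to the rest of the CDS of the same gene, with 0.5 event added to each count. Points are libraries, open points have no event in the stretches and rest on the added 0.5, and black lines are the pooled libraries. All 4 points of NCL lay above 0 on the left, between 2.02 and 2.61, whereas those of NPM1, NOLC1, TCOF1 and NOP2 fell on both sides of 0, and the filled points of TCOF1 on the right lay above 0.

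Along the coding sequence, NCL was weighted to the start and 6 of the other genes to the end. With the CDS of each gene cut into 3 equal lengths, the part next to the start codon held 59.8% of the CDS events of NCL. In these 6 genes the part next to the stop codon held the most, from 39.2% in FBL to 72.0% in NOP58. In TCOF1 it held 54.4%, or 59.5%, 59.3%, 0% and 45.9% in replicates 1 to 4. In DKC1 it held 50.6%, or 20%, 57.1%, 100% and 33.3%, and the value of replicate 3 was 7 cDNAs at 1 position, so the end was not favoured in each library. FBL was nearly even, with 35.3% in the middle part, and NPM1 and NOLC1 had the most there. Summed over the genes other than NCL, the parts held 20.8%, 29.9% and 49.3% from start to stop. The basic stretches of NOP56, NOP58, DKC1 and TCOF1 and the acidic stretch of NOP58 lay in the part next to the stop codon. Whether these stretches were denser than the rest of that part was not tested. The share of NOP58 in the part next to the stop codon was 40.6% in replicate 1 and 73.1%, 94.4% and 83.0% in the others. Replicate 1 was thus the lowest for NOP58, as it was for its acidic stretch by share.

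GANGA motifs were frequent in these transcripts. Searched on the sense strand with overlaps allowed, the 3 motifs together occurred 23.4 times per kb in NCL and 9.32 times per kb in DKC1, the lowest of the 9. The median of the 20046 canonical protein-coding transcripts was 4.59 per kb, and all 9 lay above the 90th percentile of 8.45. A motif is a description of the sequence and no evidence of a site by itself.

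Exonic events lay near a motif, starting from 5 nt upstream to 30 nt downstream, more often than all exonic positions of the same transcripts did. The paper found GAAGA enriched at significant sites of these same PR100 libraries, in this same window, and showed GANGA motifs in NCL as an example. Proximity to the motif thus describes the data from which the motif came and gives no independent test of it. The log2 ratio summed over the genes was 0.77 ± 0.04 (SD, n = 4), above 0 in every library (two-sided exact sign-flip test, p = 0.125). Without NCL the ratio was 0.32 ± 0.24. It was 0.27, 0.45, 0.002 and 0.56 in replicates 1 to 4, so replicate 3 lay at the level of all positions. With equal weight for each gene, the ratio was 0.22 ± 0.64, above 0 in 3 of 4 (exact p = 0.625). Within the CDS alone it was 0.47 ± 0.08. NCL therefore carried a large part of the sum.

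By gene, NOP58 had 65.9% of its exonic events near a motif against 28.5% of its positions, a contrast as wide as that of NCL. Its libraries had 30.8%, 75%, 94.4% and 70% in replicates 1 to 4, so replicate 1 lay at the level of the positions. DKC1 had 39.4% against 23.5% and FBL 47.2% against 31.6%. The differences were smaller in NPM1 (31.2% against 25.8%), NOLC1 (35.7% against 29.3%), TCOF1 (37.8% against 32.3%) and NOP56 (48.7% against 43.9%). NOP2 had fewer events near a motif than positions, 21.6% against 24.0%. In DKC1 and in these last 5 genes the libraries fell on both sides of the share of positions. In DKC1, NPM1, NOLC1 and TCOF1 only replicate 3 lay below, with 0 of 7, 0 of 17, 0 of 10 and 0 of 2 exonic events near a motif. In NOP56 and NOP2 the libraries were split 2 against 2. Exonic positions include the 3′ UTRs, and within the CDS alone the pooled contrasts were not the same. There NOLC1 fell below its positions, with 38.9% against 40.6%, and NOP2 stayed below, with 22.2% against 24.6%. NCL had 70.7% against 45.1% and NOP58 72.0% against 35.7%, and the remaining genes stayed above their positions.

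**Figure D4:**
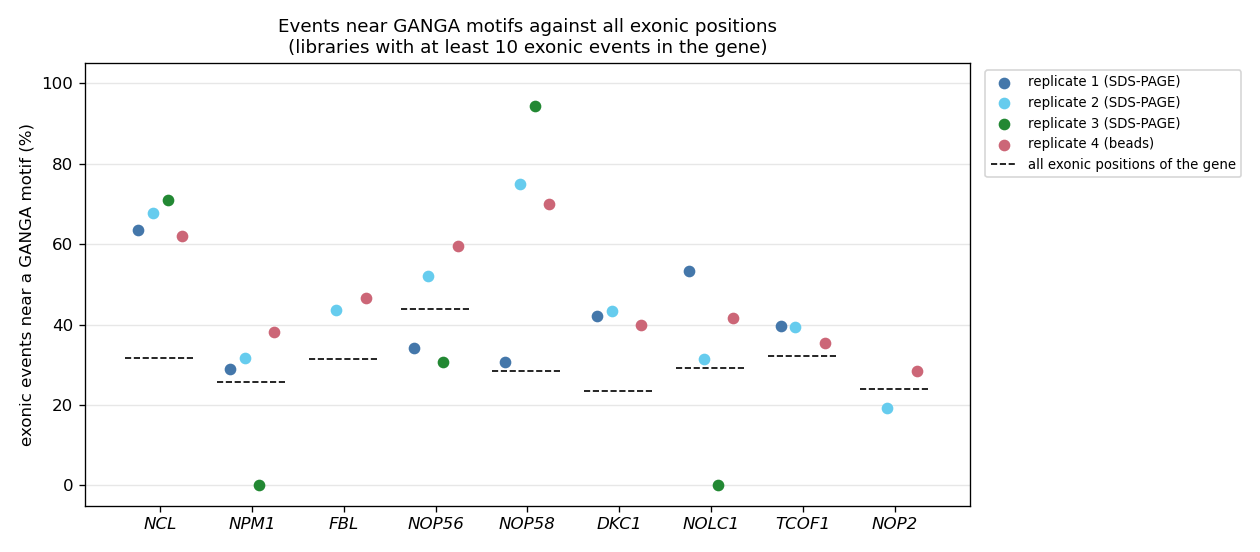
Share of exonic events near a GANGA motif, in percent, by gene and library. Dashed lines give the share of all exonic positions of the transcript, and libraries with fewer than 10 exonic events in a gene are left out. All points of NCL, between 62.0% and 70.9%, lay above its line at 31.7%, whereas the points of NOP56 fell on both sides of its line at 43.9%.

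Uracil was not favoured at the crosslinked nucleotide when these mRNAs were summed. UV light at this wavelength is known to join proteins to uracil more readily than to other bases. The share of U among exonic events against its share in the exons gave a log2 ratio of 0.01 ± 0.11 (SD, n = 4), above 0 in 2 of 4 libraries (two-sided exact sign-flip test, p = 0.875). NCL and the other genes differed here. In NCL 17.6% of the exonic events lay at U, which makes up 22.8% of its exons, and 34.1% at G, which makes up 27.2%. Without NCL the ratio was 0.37 ± 0.26, above 0 in 4 of 4 libraries (exact p = 0.125). The difference between NCL and the others was not tested.

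NPM1 stands apart as a target that short reads resolve poorly. The authors kept only reads that mapped to a single place, and of the exonic positions of NPM1 11.8% are followed by 30 nt found nowhere else in GRCh38. In the other genes this share was 87.6 to 98.5%. Events at such unique positions were 60 of its 205 exonic events. The annotation names 49 NPM1 pseudogenes, and these held 70 events. The part of these copies in the level of NPM1 was not tested, and its level is uncertain. All 87 events of NOP2 lie inside the span of an annotated readthrough gene on the same strand, which cannot be told apart from it.

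The authors' pooled list of significant clusters had 60 in the 9 genes, of 5596 in all, and these held 2302 cDNAs. NCL had 21, NOP58 9, NPM1 8, NOP56 and TCOF1 7 each, DKC1 3, FBL and NOLC1 2 each and NOP2 1. By region, 46 lay in the CDS, 3 in 5′ UTRs, 2 in 3′ UTRs and 9 in introns. A cluster of at least 1 single library overlapped 38 of the 60, and clusters of at least 2 libraries overlapped 20. Only 2 were met by clusters of all 4 libraries, and both were in NCL. They lay at chr2:231460683-231460867 with 277 cDNAs and at chr2:231463205-231463319 with 309, over exons 4 and 2 and their acidic codons. Single libraries had 8, 31, 5 and 20 clusters in the 9 genes in replicates 1 to 4, so replicate 4 had more than the deeper replicate 1.

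For the rest of the nucleolus, 115 further genes were listed by their place in box C/D and box H/ACA particles, RNA polymerase I, the small subunit processome, large subunit assembly and other nucleolar functions. Of these, 9 held at least 200 events, or 7.83%, beside 4.16% of all protein-coding genes with events. Their median was 12.1 pooled events per kb of exon. The 9 nucleolar protein genes had a median of 55.3 and all protein-coding genes with events 2.23. Both nucleolar lists were chosen with earlier results of these data known, so these medians are a description only. None of the 5 further box C/D genes and none of the 5 further box H/ACA genes reached 200 events. By events per kb of exon, the highest of those that did were TAF1D, a subunit of the RNA polymerase I factor SL1, with 64.3 per kb, and GNL3 (nucleostemin), a GTPase, with 61.6. DDX21, an RNA helicase, had 58.5, MYBBP1A had 36.9, and MKI67, the proliferation marker Ki-67 that coats mitotic chromosomes, had 35.1. All 5 lay below NCL at 348 and within the range of the 9 genes. TAF1D held 22.7% of its events in the CDS and MKI67 87.7%.

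The profile of the 9 genes over the 4 libraries was shared with other genes. By the distance between centred log2 CPM over the 4 libraries, the nearest of the 703 protein-coding genes with at least 200 events were SNRNP200 at 0.11, KDM5C at 0.12 and EXO1 at 0.18. SNRNP200, a helicase of the spliceosome, had 126, 150, 103 and 323 CPM in replicates 1 to 4. Replicate 4 was the highest library for all 3, as it was for the 9 genes.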

How the data were processed

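The authors removed barcodes, collapsed PCR copies by the random barcode, mapped reads with STAR (version not given in the sources used here) to GRCh38 with Gencode 27, kept unique matches and took the preceding nucleotide as the crosslinked position. They deposited raw counts, the number of unique cDNAs at each stranded position, and significant clusters with their summed counts. Clusters held at least 10 cDNAs.

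Counts were placed on GENCODE 44 genes and Ensembl canonical transcripts. The libraries held 334057, 604816, 125694 and 179636 events in replicates 1 to 4, so a gene with 200 pooled events had few in each. The methods of the study state a minimum of events per library that replicates 3 and 4 do not reach in the deposited lists, for a reason that is not known, and the libraries were used as deposited. CPM used the library total. Log2 ratios added 0.5 event to each count and were tested over libraries by exact sign-flip permutation, two-sided. Intervals are 95% Wilson intervals, which cover counting error only and take each cDNA as independent. Unique positions were found by a search of the genome for each 30-mer on both strands. GANGA proximity and the acidic ratio compared within each gene were tested on simulated data. The summed acidic ratio and the ratio for basic stretches were not.

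Named were all 9 genes, up to 5 other nucleolar genes with at least 200 events and the most per kb of exon, the 3 genes with the nearest profile, and the strongest positions and exons. Small RNA genes and the 3 equal lengths of the CDS were examined after their values were seen. The members, lists and 104 other settings were chosen with earlier results of these data known, and 13 settings were added after seeing the data. The work used matplotlib 3.10.9, numba 0.67.0, pysam 0.24.0, scipy 1.17.1, pandas 2.3.3, numpy 2.4.6 and Python 3.11.15.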

Additional observations from a re-analysis of the deposited data

Results flagged for a closer look

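In 5 of 28 values examined, a single library lay far from the other 3. The rule marks about 1 in 20 independent values by chance. The 28 values share the same 4 libraries, so no excess over chance can be read from the count. Replicate 4 was far above the SDS-PAGE libraries in NPM1 (507 CPM, against 167 to 198), NOP56 (1152 CPM, against 326 to 446) and NOP58 (523 CPM, against 233 to 265). Replicate 3 was far below the others in the share of exonic events near a GANGA motif in DKC1 (0%) and TCOF1 (0%). It had 7 exonic events in DKC1, all at 1 position, and 2 in TCOF1, which is too few to bound a share in either gene.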

How the results depend on the processing

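The direction of both CDS density ratios, of GANGA proximity and of the acidic and basic stretches was kept under each alternative run on the sums, although the acidic ratio was 0.18 without NCL. No p-value can pass 0.05 with 4 libraries, so their p-values say nothing about stability. The ratio for U turned negative without the strongest position of each gene (-0.027) and without replicate 3 (-0.036). Without 1 library, it ranged from -0.036 to 0.051. With a minimum of 400 events 2 genes remained, and without 1 library at a time 3 to 5 genes reached 200, the lowest without replicate 2. The CDS share was 76.4% for events inside no other same-strand gene, 68.8% inside and 51.6% outside significant clusters, 53.0% without NCL and 76.6% with small RNA genes left out of introns. Without 1 library it ranged from 62.7% to 65.3%. Clusters with at least 20 cDNAs numbered 33, and 39 lay outside NCL. The cause was not tested, beyond the genes or events that an alternative leaves out. Leaving out a library was not run for the clusters, which were called by the authors on the pooled libraries. No paired analysis was possible because the 4 libraries form 1 group. Depth limits FBL, NOP2, TCOF1, DKC1 and NOLC1 most in replicate 3, with 1, 5, 6, 7 and 10 events there.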
